A study of Mus musculus with 12 samples.

Results

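The genes described here are 10 that epithelial cells of the choroid plexus use to make proteins for the cerebrospinal fluid, or that regulate or receive signals in those cells: Ttr, Wfdc2, Enpp2, Sostdc1, Kl, Igf2, Igfbp2, F5, Otx2 and Prlr. They were chosen by name out of 24209 genes, after RefSeq entries had been joined to gene symbols and the entries of a gene had been summed. An entry without a symbol was counted as a gene of its own. The choice was made with the miR-34 comparison of these data known, so the values of these genes in that comparison are given as a description, with no p and no count of calls.

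Hippocampi of 12 male C57BL/6 mice were studied by mRNA-seq in 2 experiments of 6 mice. Every mouse had received bilateral hippocampal injections at 10 weeks of age of an AAV vector with a synapsin promoter, which drives expression in neurons, and the tissue was dissected 10 weeks later. The vector carried GFP alone (GFP Ctrl), GFP with a miR-9 sponge (GFP-miR-9sp) or GFP with a miR-34 sponge (GFP-miR-34sp), each in 3 mice per experiment, so that all mice expressed GFP in neurons and both experiments had their own GFP Ctrl mice. A sponge is a transcript with repeated binding sites that sequesters a miRNA family. Sponge and GFP transcripts are not rows of the tables, and the sponges themselves were not analysed here.

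The choroid plexus is a sheet of secretory epithelium around a vascular core that hangs into the brain ventricles, the lateral one lying beside the hippocampus. Its epithelium makes most of the cerebrospinal fluid and secretes carrier proteins, growth factors and their binding proteins into it. Transthyretin, the product of Ttr, is the best known of these proteins and carries thyroid hormone and retinol with its binding protein. The labels call the cells hippocampal neurons, while the RNA came from the whole dissected tissue. Of the 8 markers used here for choroid plexus epithelium (Ttr, Folr1, Kcne2, Kcnj13, Aqp1, Clic6, Otx2 and Kl), 6 passed the limit on low counts in each experiment and Folr1 was listed at 0 in all 12 mice. The 5 of them that are not among the 10 genes summed to 4.22 to 42.5 CPM (counts per 1000000 reads) over the mice of the miR-9 experiment and 4.81 to 84.0 CPM over those of the miR-34 experiment. In bulk tissue, fewer cells of a type and less RNA per cell cannot be told apart.

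The sponges carry imperfectly complementary sites for a miRNA family. The seed is taken here as bases 2 to 8, whereas that of the paper ends before base 8. It is shown in capitals in the mature sequences from RefSeq (GRCm38.p6). The paper also names miR-34c, whose sequence is not printed here. miR-34a-5p and miR-34b-5p have the same seed, and the same mature miR-9-5p comes from 3 loci.
miR-34a-5p: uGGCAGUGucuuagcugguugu
miR-34b-5p: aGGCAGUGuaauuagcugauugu
miR-9-5p: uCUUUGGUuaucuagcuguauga

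The libraries held 17279620 to 24428477 reads (miR-9 experiment) and 11029604 to 16934133 reads (miR-34 experiment), and CPM refer to these totals. The 3 reads taken as the smallest detectable level are worth 0.123 to 0.272 CPM, which covers counting error only. Rn45s, the ribosomal precursor, took 0.474% to 1.46% of the reads of a mouse in the former experiment and 0.133% to 0.164% in the latter, and the column labels of the former contain the word totRNA. Levels are therefore compared within an experiment, and values of both are set side by side.

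Per length of transcript, as CPM per kilobase (RPKM) averaged over the 12 mice, Ttr had the highest level of the 10 genes, 447. Igfbp2 followed at 31.6 RPKM and Kl at 11.1 RPKM. Sostdc1 (4.17 RPKM), Prlr (1.80 RPKM), F5 (1.31 RPKM) and Wfdc2 (1.16 RPKM) were lower, and Igf2 (0.766 RPKM), Enpp2 (0.481 RPKM) and Otx2 (0.0162 RPKM) were the lowest. The spread over mice was as large as these levels for several genes, with an SD of 596 RPKM for Ttr and 1.59 RPKM for both F5 and Wfdc2.

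Ttr was the most variable of the 8 genes with reads in every mouse, with a highest level 78.7 times the lowest in the miR-34 experiment and 47.7 times in the miR-9 experiment. In the miR-34 experiment Ttr was at 1802, 2175 and 576 CPM in GFP Ctrl mice 4, 8 and 10, and at 91.3, 102 and 27.6 CPM in GFP-miR-34sp mice 3, 13 and 18. Every GFP-miR-34sp mouse was below every GFP Ctrl mouse. In the miR-9 experiment it was at 650, 81.4 and 236 CPM in GFP Ctrl mice 2, 8 and 16, and at 16.01, 763 and 21.1 CPM in GFP-miR-9sp mice 9, 17 and 23. These groups overlapped, since GFP-miR-9sp mouse 17 was the highest of the 6 mice and the other two GFP-miR-9sp mice were the lowest. Ranked by reads per length, Ttr was the 4th gene of the transcriptome in GFP Ctrl mouse 8 of the miR-34 experiment and the 5212th in GFP-miR-9sp mouse 9.

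The group means of Ttr were 1518 ± 837 CPM (SD, n = 3) in GFP Ctrl and 73.8 ± 40.4 CPM in GFP-miR-34sp of the miR-34 experiment, and 323 ± 294 CPM in GFP Ctrl and 267 ± 430 CPM in GFP-miR-9sp of the miR-9 experiment. Set in order of level the groups of the miR-9 experiment lay between those of the miR-34 experiment, and each group overlapped with its neighbour, but group and experiment cannot be told apart in values set across experiments. The highest mouse of a group exceeded the lowest 47.7-fold in GFP-miR-9sp, 7.98-fold in its GFP Ctrl, 3.71-fold in GFP-miR-34sp and 3.78-fold in its GFP Ctrl. Mice that had received the same vector thus varied widely, most of all in GFP-miR-9sp.

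**Figure D1:**
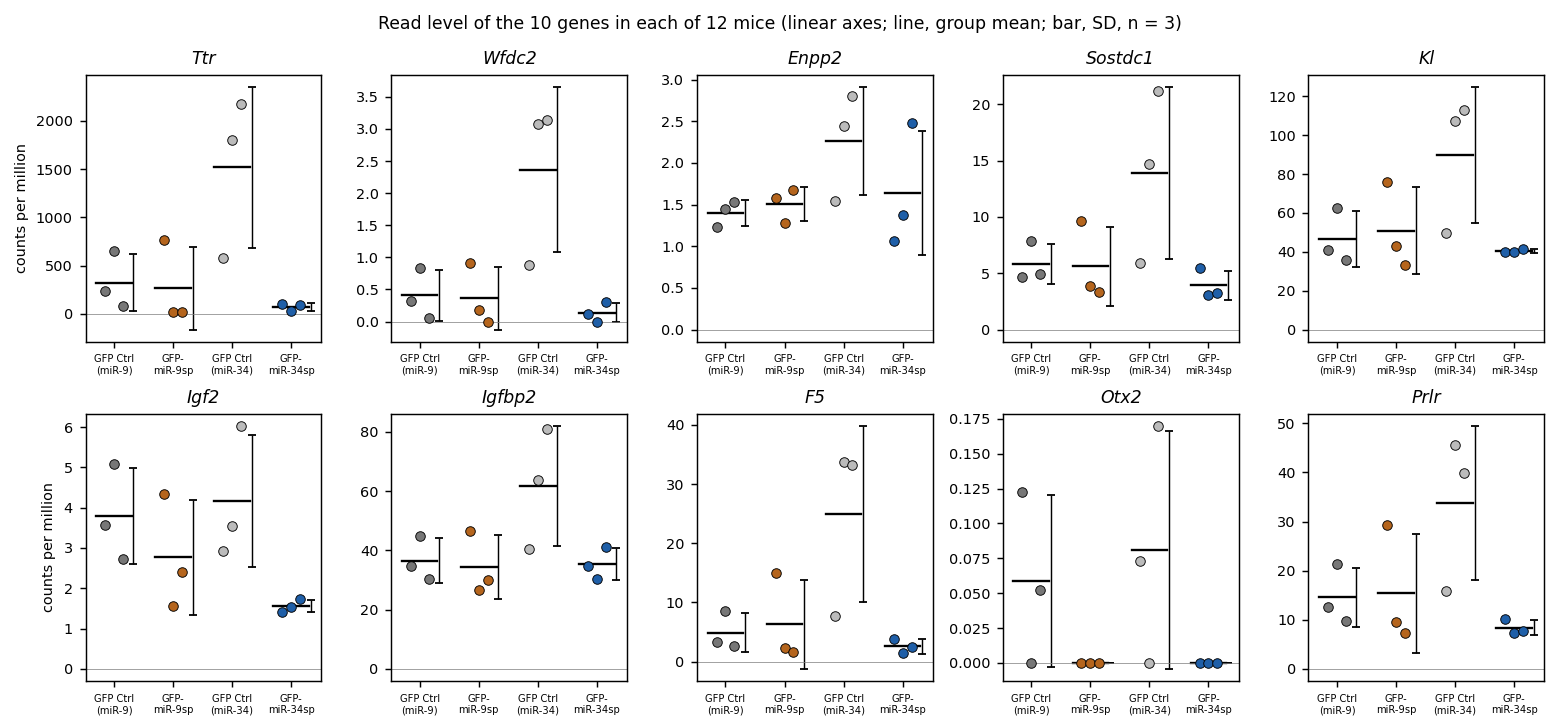
Level of each of the 10 genes in CPM (vertical linear axes, own scale per gene) in the 12 mice, by group, with the mean (line) and SD (bar, n = 3). For Ttr, the GFP-miR-34sp mice sit between 27.6 and 102 CPM, below the 576 to 2175 CPM of their GFP Ctrl mice, while GFP-miR-9sp mouse 17 at 763 CPM is the highest of the miR-9 experiment.

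Among the other secreted proteins, Wfdc2, which codes for a small whey acidic protein family member, followed Ttr most closely in size of the difference. Wfdc2 was at 3.08, 3.14 and 0.879 CPM in GFP Ctrl mice 4, 8 and 10 and at 0.300, 0.118 and 0 CPM in GFP-miR-34sp mice 3, 13 and 18. The groups did not overlap, but 137 reads in all 12 mice is a thin base, and the levels in GFP-miR-34sp were within about the 3-read limit. Wfdc2 in the miR-9 experiment was at 0.839, 0.053 and 0.327 CPM in GFP Ctrl mice 2, 8 and 16 and at 0, 0.919 and 0.174 CPM in GFP-miR-9sp mice 9, 17 and 23, again highest in mouse 17.

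F5, coagulation factor V, was at 33.7, 33.3 and 7.69 CPM in GFP Ctrl mice 4, 8 and 10 and at 2.40, 3.84 and 1.46 CPM in GFP-miR-34sp mice 3, 13 and 18. F5 in the miR-9 experiment was at 8.62, 2.68 and 3.40 CPM in GFP Ctrl mice 2, 8 and 16 and at 1.67, 14.95 and 2.26 CPM in GFP-miR-9sp mice 9, 17 and 23. Groups were separate in the former experiment and overlapped in the latter, and F5 had the second largest range of the genes with reads in every mouse, 23.1-fold and 8.96-fold.

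Sostdc1 codes for a secreted antagonist of BMP and Wnt signals. It was at 14.7, 21.1 and 5.93 CPM in GFP Ctrl mice 4, 8 and 10 and at 3.22, 5.43 and 3.09 CPM in GFP-miR-34sp mice 3, 13 and 18, so that the groups were separate by a narrow gap. In the miR-9 experiment it was at 7.83, 4.89 and 4.67 CPM in GFP Ctrl mice 2, 8 and 16 and at 3.29, 9.65 and 3.88 CPM in GFP-miR-9sp mice 9, 17 and 23, with overlap.

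Enpp2 codes for autotaxin, the secreted enzyme that makes lysophosphatidic acid. It was at 2.45, 2.80 and 1.54 CPM in GFP Ctrl mice 4, 8 and 10 and at 2.47, 1.06 and 1.37 CPM in GFP-miR-34sp mice 3, 13 and 18. GFP-miR-34sp mouse 3 was above GFP Ctrl mice 4 and 10, so the groups overlapped. In the miR-9 experiment the 6 mice lay between 1.23 and 1.67 CPM, and Enpp2 had the smallest range of the 8 genes in both experiments, 2.64-fold in the miR-34 and 1.36-fold in the miR-9 experiment.

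The counts of Enpp2 have a limit of their own. Enpp2 has 4 RefSeq entries, and all 323 of its reads were on 1 of them, while the other 3 had 0 reads in every mouse. Otx2 also has 4 entries, Igf2 and Prlr have 3 each, and the remaining 6 genes have 1. Over the genes of the table, 57.9% of those with 1 entry and 29.96% of those with 4 or more had a mean above 10 reads. How reads shared by several entries were counted is not given in the sources used here, so the levels of Enpp2, Otx2, Igf2 and Prlr are uncertain.

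Growth factor genes of the IGF family were the next group. Igf2 codes for a growth factor that the choroid plexus and leptomeninges release into the fluid. It was at 3.54, 6.03 and 2.93 CPM in GFP Ctrl mice 4, 8 and 10 and at 1.73, 1.42 and 1.55 CPM in GFP-miR-34sp mice 3, 13 and 18, without overlap. Its levels in the miR-9 experiment were 5.08, 2.74 and 3.56 CPM in GFP Ctrl mice 2, 8 and 16 and 2.40, 4.34 and 1.56 CPM in GFP-miR-9sp mice 9, 17 and 23, with overlap.

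Igfbp2 codes for a secreted protein that binds IGFs. It was at 63.7, 80.8 and 40.4 CPM in GFP Ctrl mice 4, 8 and 10 and at 41.2, 34.7 and 30.2 CPM in GFP-miR-34sp mice 3, 13 and 18. The groups overlapped, because GFP-miR-34sp mouse 3 was above GFP Ctrl mouse 10. In the miR-9 experiment the GFP Ctrl mice lay between 30.2 and 44.8 CPM and the GFP-miR-9sp mice between 26.5 and 46.6 CPM.

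Kl codes for klotho, which is released from the epithelium and acts with FGF receptors as a co-receptor. It was at 107, 113 and 49.5 CPM in GFP Ctrl mice 4, 8 and 10 and at 41.5, 39.9 and 39.7 CPM in GFP-miR-34sp mice 3, 13 and 18. The groups were separate, and the GFP-miR-34sp mice differed little from each other. Kl in the miR-9 experiment was at 62.7, 35.6 and 41.0 CPM in GFP Ctrl mice 2, 8 and 16 and at 33.3, 75.9 and 43.2 CPM in GFP-miR-9sp mice 9, 17 and 23.

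Prlr codes for the prolactin receptor, by which the epithelium takes up and responds to prolactin. It was at 45.5, 39.8 and 15.9 CPM in GFP Ctrl mice 4, 8 and 10 and at 7.72, 10.1 and 7.21 CPM in GFP-miR-34sp mice 3, 13 and 18, without overlap. Its levels in the miR-9 experiment were 21.3, 9.74 and 12.7 CPM in GFP Ctrl mice 2, 8 and 16 and 7.25, 29.3 and 9.43 CPM in GFP-miR-9sp mice 9, 17 and 23, with overlap.

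Otx2 codes for the homeodomain factor that specifies and maintains the choroid plexus. Only 7 reads of Otx2 were counted in the 12 mice, and 8 mice had 0 reads. It was not above 0.170 CPM in any mouse, and no difference was detectable with so few reads. Otx2 has 4 RefSeq entries, and the parts of depth and of the counting of shared reads in its low level were not tested.

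Within the miR-34 experiment all 10 genes had their highest level in a GFP Ctrl mouse, 8 in mouse 8 and 2 (F5 and Prlr) in mouse 4. Within the miR-9 experiment, 7 of the 10 (Ttr, Wfdc2, Sostdc1, Kl, Igfbp2, F5 and Prlr) were highest in GFP-miR-9sp mouse 17.

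For the comparison of GFP-miR-9sp with GFP Ctrl, a gene entered edgeR's quasi-likelihood test with a mean above 10 scaled reads over the 6 mice. Ttr, Enpp2, Sostdc1, Kl, Igf2, Igfbp2, F5 and Prlr did, and Wfdc2 and Otx2 did not. None of these 8 genes passed an adjusted p (Benjamini-Hochberg over all 13045 genes tested) of 0.05 or an unadjusted p of 0.05, and none did with DESeq2. Over all genes 0% were called by edgeR, 617 genes (4.73%) had an unadjusted p under 0.05, and DESeq2 called 2. The groups overlapped for all 10 genes, whereas GFP-miR-9sp was lower without overlap for 7.86% and higher for 3.11% of all genes tested.

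The log2 fold change of Ttr between GFP-miR-9sp and GFP Ctrl was -0.27 ± 1.16 (SE, edgeR adjusted p = 0.991), that of F5 was 0.39 ± 0.70 (adjusted p = 0.978) and that of Igf2 was -0.43 ± 0.32 (adjusted p = 0.970). Sostdc1, Kl, Igfbp2, Prlr and Enpp2 lay between -0.07 and 0.15, with SE between 0.19 and 0.45. The median over the 8 tested genes was 0.04, beside -0.0006 over all genes. The values moved with single mice. Without GFP-miR-9sp mouse 17 the log2 fold change of Ttr was -4.09 and 7 of the 8 genes were below 0. Without GFP Ctrl mouse 2 it was 0.75, and without GFP-miR-9sp mouse 9 or 23 it was 0.29 or 0.27, and in each of these cases 1 of 8 was below 0.

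For the comparison of GFP-miR-34sp with GFP Ctrl, 9 of the 10 genes entered the fit, all except Otx2. Wfdc2 passed the limit on low counts through its GFP Ctrl level. The log2 fold changes, with the SE from edgeR and no test, were -4.34 ± 0.49 for Ttr, -3.93 ± 0.69 for Wfdc2, -3.19 ± 0.52 for F5 and -1.98 ± 0.32 for Prlr. They were -1.77 ± 0.39 for Sostdc1, -1.41 ± 0.29 for Igf2, -1.15 ± 0.23 for Kl, -0.80 ± 0.20 for Igfbp2 and -0.47 ± 0.33 for Enpp2. The mean of Ttr in GFP Ctrl was 20.6 times that in GFP-miR-34sp, and that of F5 9.71 times, whereas that of Igfbp2 was 1.74 times and that of Enpp2 1.38 times. The median was -1.77, beside -0.0007 over all genes.

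GFP-miR-34sp was lower without overlap for 7 of the 10 genes (Ttr, Wfdc2, Sostdc1, Kl, Igf2, F5 and Prlr) and for 5.43% of all genes tested, and higher for none of the 10 and 6.2% of all genes. Since the genes were chosen from this comparison, these counts describe the choice. Over all 12492 genes edgeR called 8, or 0.064%, and 6.43% had an unadjusted p under 0.05. The number called was 57 without GFP Ctrl mouse 10, the lowest of its group in Ttr, 1 without GFP Ctrl mouse 8, and 0 without GFP Ctrl mouse 4 or any one GFP-miR-34sp mouse. The difference between the miR-9 and miR-34 sponge effects was not tested here.

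**Figure D2:**
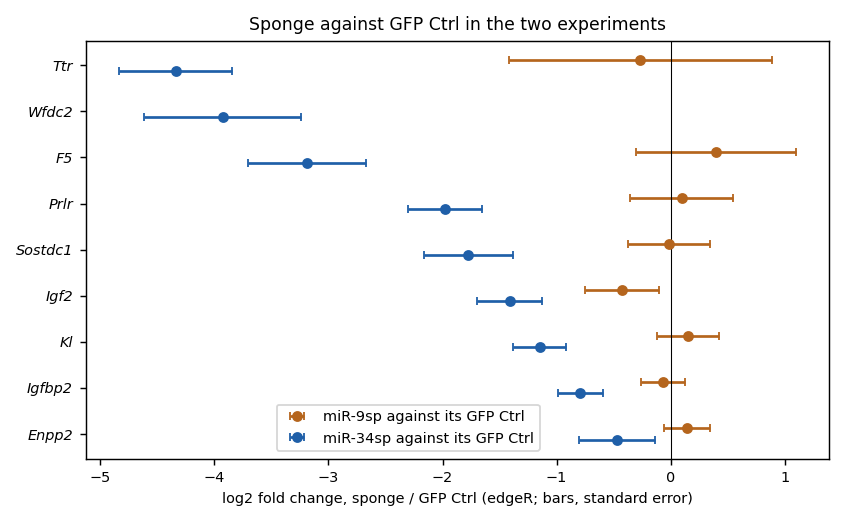
Log2 fold change of each tested gene, sponge over GFP Ctrl (horizontal axis; points, edgeR estimate; bars, SE, n = 3 mice per group), in the miR-9 (brown) and the miR-34 (blue) experiment. The miR-34 values run from -4.34 for Ttr to -0.47 for Enpp2, and the miR-9 values from -0.43 for Igf2 to 0.39 for F5.

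The levels of 7 of the genes followed that of Ttr from mouse to mouse in both experiments. On log2(CPM + 0.5), Pearson's r with Ttr over the 12 mice was 0.94 for F5, 0.93 for Prlr, 0.92 for Wfdc2, 0.90 for Sostdc1 and Igfbp2, 0.87 for Kl and 0.81 for Igf2, and the Spearman rho was 0.77 or more for these 7. Within the 6 mice of the miR-9 experiment r was 0.82 to 0.93 for the 7 genes, and within the 6 of the miR-34 experiment 0.91 to 0.98. Enpp2 (0.49 over 12 mice, -0.04 and 0.63 within experiments) and Otx2 (0.44, 0.14 and 0.64) followed Ttr less. Without the 2 mice farthest from the median of Ttr, r was 0.76 to 0.92 for the 7 genes and 0.01 for Enpp2. The points share the library of each mouse. The r over the miR-34 experiment and over the 12 mice include the difference between groups that was known when the genes were chosen. The r over the 12 mice also spans both experiments. These correlations are descriptions.

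The genes differed in how much of their level was left when Ttr was low. In a least squares line of each gene's CPM on that of Ttr, fitted within the 6 mice of an experiment, the intercept for Wfdc2 was 9.0% ± 11.4 (SE) of its mean level in the miR-9 experiment and 2.6% ± 8.9 in the miR-34 experiment, and for F5 it was 20.9% ± 18.5 and 7.0% ± 10.9. For Sostdc1 it was 62.1% ± 6.3 and 32.6% ± 10.6, and for Prlr 49.9% ± 7.7 and 33.8% ± 11.8. The intercepts of Igf2 (68.0% ± 10.7 and 51.9% ± 13.7), Kl (70.4% ± 6.6 and 55.4% ± 4.4), Igfbp2 (79.1% ± 2.2 and 67.2% ± 6.1) and Enpp2 (98.4% ± 7.5 and 77.9% ± 15.6) were more than those of Wfdc2 and F5 in both experiments. For Wfdc2 the intercept was below its SE in both experiments. For F5 it was below its SE in the miR-34 experiment and slightly above it in the miR-9 experiment. Kl, Igf2, Igfbp2 and Enpp2 had most of their mean level at a Ttr level of 0 on the lines of both experiments. For Sostdc1 this held in the miR-9 experiment only, but each percentage refers to the mean level of its own experiment, which was 5.70 CPM in the miR-9 and 8.92 CPM in the miR-34 experiment. In CPM its intercepts were 3.54 ± 0.36 and 2.91 ± 0.94 (SE). Percentages are therefore not compared between the experiments. Per 1000 CPM of Ttr, the slope of F5 was 15.02 CPM in the 6 mice of the miR-9 experiment and 16.04 CPM in those of the miR-34 experiment, and that of Sostdc1 was 7.33 and 7.55 CPM. The slopes of Kl (48.9 and 36.5 CPM), Prlr (25.4 and 17.5 CPM) and Igf2 (3.56 and 1.73 CPM) were higher in the miR-9 experiment, a difference that was not tested.

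**Figure D3:**
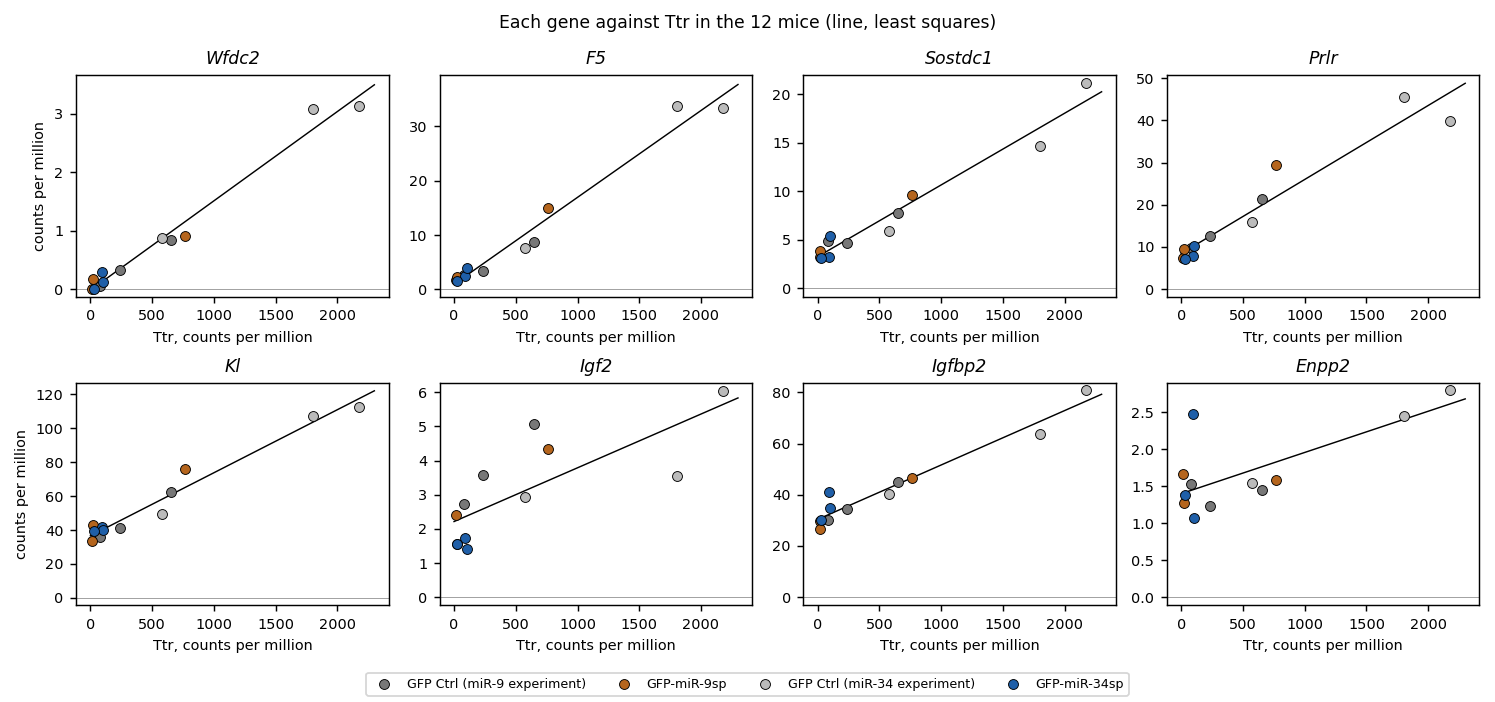
Level of 8 genes (vertical axes, CPM) against that of Ttr (horizontal axis, CPM) in the 12 mice, coloured by group, with the least squares line over all mice as a guide. The line meets the vertical axis near 0 for Wfdc2 and F5 and at 36.6 CPM for Kl and 30.4 CPM for Igfbp2.

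Across the other genes of the transcriptome, the 10 whose log2 level was most like the average standardised level of the described genes were Kcne2 (r = 0.98 over 12 mice, of 12038 genes ranked), Ecrg4, Lbp, Steap1, Aqp1, Cldn2, Rdh5, Slc2a12, Slc4a5 and Tmem72 (r = 0.96). Kcne2 codes for a potassium channel subunit, Aqp1 for a water channel, Cldn2 for a tight junction protein and Slc4a5 for a bicarbonate transporter. Kcne2 ranged from 0.429 to 18.3 CPM over the mice and Aqp1 from 0.289 to 10.2 CPM. This ranking over 12 mice also includes the group difference of the miR-34 experiment that was known when the described genes were chosen.

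In a list of 30 other genes of choroid plexus epithelium, 24 entered the miR-34 comparison. Of these 24, 21 were lower in GFP-miR-34sp without overlap and 0 were higher, beside 5.43% and 6.2% of all genes tested. The median log2 fold change was -1.82. Like the 10 genes, this list was chosen with earlier results known. In addition, 6 of the 24 (Kcne2, Aqp1, Tmem72, Steap1, Krt8 and Krt18) passed the limit on low counts through their GFP Ctrl level alone. Its counts and values in this comparison therefore describe the choice, and no calls are counted. Tmem72, which codes for a membrane protein, was at 0.408 ± 0.169 CPM (SD, n = 3) after GFP-miR-34sp and 6.31 ± 3.05 CPM in GFP Ctrl. Aqp1 was at 0.604 ± 0.153 and 7.86 ± 4.01 CPM, Kcnj13, a potassium channel, at 1.37 ± 0.37 and 11.2 ± 6.0 CPM, and Cldn2 at 1.09 ± 0.37 and 8.98 ± 4.65 CPM. Car12, a carbonic anhydrase and the most abundant gene of the list, was at 67.3 ± 5.0 and 86.6 ± 11.4 CPM. In the miR-9 comparison 0 of 24 were called by edgeR or DESeq2, 1 had an unadjusted p under 0.05, and the median was -0.003.

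The partners of the 10 genes were described by 8 lists: thyroid hormone and retinol transport for Ttr, IGF receptors and binding proteins for Igf2 and Igfbp2, receptors and phosphatases of lysophosphatidic acid for Enpp2, BMP ligands and receptors with LRP co-receptors for Sostdc1, FGF receptors and the klotho family for Kl, prolactin signalling for Prlr, coagulation for F5, and OTX and patterning factors for Otx2. None of these lists held a gene that edgeR or DESeq2 called in either experiment. Of the 51 genes tested after GFP-miR-9sp, 3 had an unadjusted p under 0.05, and of the 45 tested after GFP-miR-34sp, 6 did, beside the 4.73% and 6.43% of all genes given above. The medians in the miR-34 comparison ran from -0.37 for the OTX list to 0.06 for the FGF receptor and klotho list. Only 3 and 2 genes of these lists were tested. Among the most abundant partners, Igfbp5, an IGF binding protein, was at 433 ± 5 CPM after GFP-miR-34sp and 413 ± 71 CPM in GFP Ctrl. Plpp3, a lipid phosphatase, was at 490 ± 8 and 510 ± 18 CPM. Cish, of the prolactin list, was lower without overlap, at 3.35 ± 0.53 and 4.83 ± 0.52 CPM. Bmpr2, of the BMP list, was higher without overlap, at 464 ± 1 and 447 ± 1 CPM. For the most abundant gene of each other list the groups of the miR-34 experiment overlapped.

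Markers of other cells in the tissue were examined in 8 further lists, in which edgeR and DESeq2 called 0 genes in both experiments, with 4 of 52 tested genes at an unadjusted p under 0.05 after GFP-miR-9sp and 8 of 52 after GFP-miR-34sp, where 6.43% of all genes were. Of these 8, 5 were among the 12 tested leptomeningeal markers. The summed level of 4 astrocyte markers was 765 to 828 CPM after GFP-miR-34sp and 855 to 895 CPM in GFP Ctrl, without overlap. Of the 4, 1 (Gfap) was lower without overlap, beside 5.43% of all genes, and their median log2 fold change was -0.11. The r of this sum with Ttr was 0.97 over the 6 mice of that experiment and 0.87 over those of the miR-9 experiment, the highest of the 8 lists. The other lists had r of 0.04 to 0.61 in the miR-34 experiment and -0.20 to 0.81 in the miR-9 experiment. The 13 leptomeningeal markers summed to 119 to 133 CPM after GFP-miR-34sp and 124 to 265 CPM in GFP Ctrl, with a median log2 fold change of -0.54. The 9 ependymal markers summed to 34.1 to 50.9 CPM and 45.5 to 51.8 CPM, and the 10 markers of hippocampal neurons to 2439 to 2669 CPM and 2594 to 2640 CPM. Microglial markers of the miR-9 experiment summed to 379 to 397 CPM after GFP-miR-9sp and 409 to 417 CPM in GFP Ctrl, without overlap. The part of these cells in the values of the 10 genes was not tested.

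**Figure D4:**
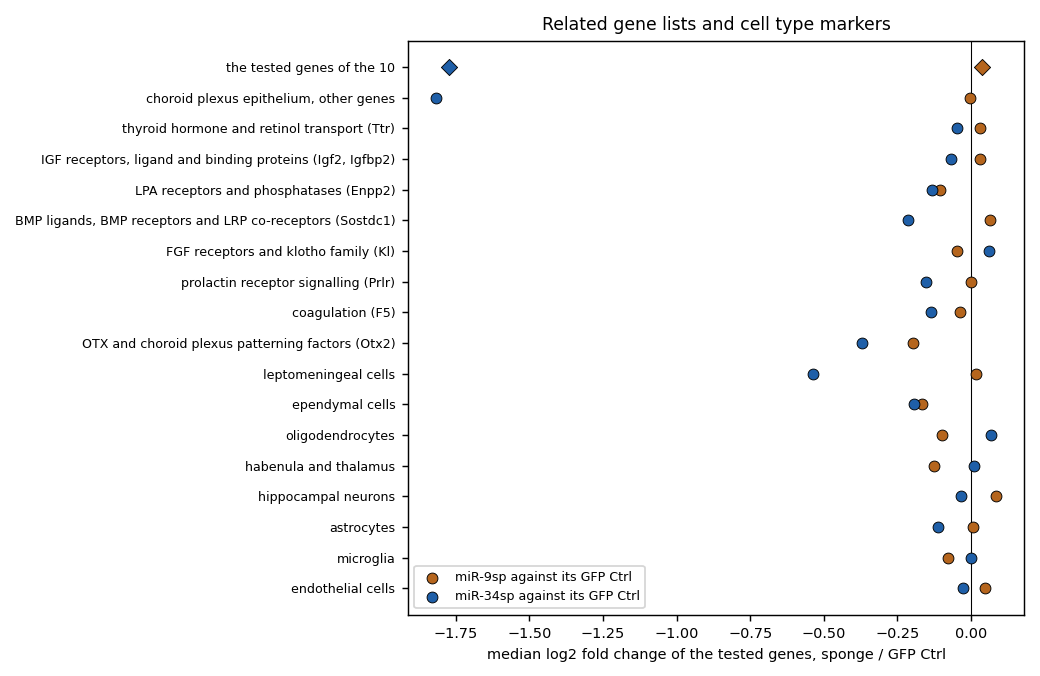
Median log2 fold change of the tested genes of each list shown, sponge over GFP Ctrl (horizontal axis), in the miR-9 (brown) and miR-34 (blue) experiment. The list of 8 choroid plexus epithelium markers, which holds some of the described genes, is not shown (median -3.30 after GFP-miR-34sp). The diamonds are the 10 genes' own tested members (-1.77 after GFP-miR-34sp), and apart from the list of other choroid plexus genes (-1.82) the medians lie between -0.54 and 0.09.

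The 3′ UTRs of the 10 genes were searched for the heptamer complementary to each seed, CACTGCC for miR-34 and ACCAAAG for miR-9, on the transcript strand only, using per gene the longest annotated 3′ UTR (GENCODE M1, NCBIM37). Igf2 held 2 miR-34 sites and was the only one of the 10 with any, while 14.0% of 19915 genes with a 3′ UTR held at least 1. The sites are printed with the heptamer in capitals and 10 bases on each side, and both are followed by A (an 8mer). Of all genes with a 3′ UTR, 4.89% held a miR-34 8mer.
Igf2 at chr7:149838487-149838513, minus strand: aaggagatggCACTGCCaagtgataca
Igf2 at chr7:149837702-149837728, minus strand: cccagctggcCACTGCCagttgggggg
Prlr held 3 miR-9 heptamers and was the only one of the 10 with any, while 11.4% of genes did.
Prlr at chr15:10261339-10261365, plus strand: ataaataaacACCAAAGccaatgcaag
Prlr at chr15:10262558-10262584, plus strand: tcaatgaacaACCAAAGgacctgaact
Prlr at chr15:10265267-10265293, plus strand: tcttgtataaACCAAAGtaatcagccc
Igf2, with the miR-34 sites, was at 1.56 ± 0.15 CPM after GFP-miR-34sp and 4.16 ± 1.64 CPM in GFP Ctrl. Prlr, with the miR-9 sites, was at 15.3 ± 12.2 CPM after GFP-miR-9sp and 14.6 ± 6.0 CPM in GFP Ctrl (log2 fold change 0.10 ± 0.45, edgeR adjusted p = 0.994). Prlr (7742 bases) and Igf2 (3048 bases) had the longest 3′ UTRs of the 10 genes, the others being 177 to 1955 bases long. The shares over all genes are not adjusted for length. A match is a description of the letters only.

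The motif TAATCC, which OTX factors bind, was searched on both strands in the 300 bases around RefSeq transcript starts (GRCm38.p6). It was found in 2 of 17 windows of the 7 genes with an entry, 1 of Igf2 and 1 of Otx2, and in 7.06% of all 32851 windows.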

How the data were processed

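Hippocampal RNA of 12 mice was measured by poly-A-enriched mRNA-seq. The deposited values are raw counts that the authors obtained per RefSeq entry from 50 bp single end reads, with the entry length in bases given by the authors as another value. The paper's methods name mm9, whereas the submitters' processing notes list mm10 and STAR. The counting tool and the rule for shared reads are not given in the sources used here. The labels name the miR-34 experiment for 3 of the GFP Ctrl mice, and the other 3 were taken as controls of GFP-miR-9sp, since the methods describe 3 per experiment.

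Of 32850 entries, 98.7% were joined to a symbol and summed per gene. Entries without a symbol (1.29% of reads) were kept, each as a gene of its own. For 2 entries the length differed between the experiments' tables, and 1 length was used. Genes with a mean above 10 scaled reads over the 6 mice of an experiment were tested with the quasi-likelihood test of edgeR 4.0.16 (TMM, R 4.3.3), with Benjamini-Hochberg adjustment and a limit of 0.05. DESeq2 1.42.0, other size factors and filters, each RefSeq entry, 1 model of 12 mice, the paper's parametric test with ratio limits of 1.2 and 0.833, and leaving out each mouse were the alternatives. Code was tested on simulated data. The SE is the log2 fold change divided by the root of its F. CPM and RPKM were computed from the counts with Python 3.11.15, scipy 1.17.1 and pandas 2.3.3. Correlations used a pseudocount of 0.5 CPM, and genes of at least 1 CPM on average were ranked for likeness.

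The 10 genes and all lists were chosen with earlier results of these data known. From each list, up to 4 called genes with the lowest adjusted p and the most abundant gene were to be named. Exact permutation tests of 3 mice against 3 cannot give a two-sided p below 0.1 and were not used. Samples of a miR-124 sponge were not analysed here.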

Additional observations from a re-analysis of the deposited data

How the results depend on the processing

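In the miR-9 experiment, where edgeR called 0 genes, DESeq2 called 2, no filter on low counts 2, the paper's parametric criterion 188, and leaving out 1 mouse 0 to 1. None of the 10 genes was called under any of these. In the miR-34 experiment, where edgeR called 8, RLE size factors, total counts only, a filter on GFP Ctrl only and each RefSeq entry gave 4 each, DESeq2 gave 36, no filter 81, the paper's parametric criterion 250, the model of 12 mice 0, and leaving out 1 mouse 0 to 57 (57 without GFP Ctrl mouse 10).

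The log2 fold changes of the genes tested after GFP-miR-34sp stayed below 0 under every alternative, with a median of -2.15 to -1.33 when 1 mouse was left out. After GFP-miR-9sp the median was -0.72 to 0.34 when 1 mouse was left out, and the sign of 6 genes turned. Ttr ranged from -4.09 to 0.75, Sostdc1 from -0.66 to 0.26, Kl from -0.25 to 0.43, Igfbp2 from -0.34 to 0.11, F5 from -1.29 to 1.07 and Prlr from -0.78 to 0.47. These ranges follow from leaving out single mice, with GFP-miR-9sp mouse 17 giving the low ends and GFP Ctrl mouse 2 the high ends for Ttr. TMM-scaled CPM moved the group means of Ttr by less than the spread between mice. The median r with Ttr over the other 9 genes in the miR-9 experiment was 0.913, 0.919 with a pseudocount of 0.1 CPM and 0.910 with TMM-scaled CPM. For the other moved counts the cause was not tested. No paired analysis was run, because the compared groups were different mice and neither the labels nor the paper give pairs. Few reads limited Otx2 and Wfdc2, which had 7 and 137 reads in all. For Otx2, which has several RefSeq entries, the part of the counting of shared reads in this was not tested.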
